A study of Mus musculus with 15 samples.

Results

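The block described here is the run of intact odorant receptor genes whose older symbols run from Olfr720 to Olfr827. Members were taken by symbol alone, leaving out symbols with a pseudogene suffix and Olfr738 and Olfr749, which gave 85 genes of the 1107 intact odorant receptor genes in the count table. Intact is read here from the symbol: by the annotations 84 of the 85 are protein coding and Olfr779, which had too few counts to be tested, is a pseudogene. On the mouse chromosomes 57 members form an array on chromosome 10, 25 form an array on chromosome 14, and Olfr720, Olfr750 and Olfr761 lie apart from both. The samples were olfactory epithelia of wildtype male C57BL/6J mice, 8 weeks of age, from which messenger RNA bound to ribosomes with phosphorylated ribosomal protein S6 was precipitated with an antibody and sequenced. Mice sat in odour-free chambers for 4 h and were then exposed for 90 min. The 5 groups had 3 libraries each. Control mice had empty filter papers. A+D mice had 10 µL acetophenone and 10 µL decanal together on the same paper, and A&D mice had the same volumes on separate papers about 1 mm apart. O+C and O&C mice had octanal and cis-3-hexenol in the corresponding arrangements. The labels call the 3 libraries of a group biological replicates, and no group received a single odorant.

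Odorant receptors are G-protein-coupled receptors in the cilia of olfactory sensory neurons. A mature neuron transcribes a single receptor gene from a single allele, so the receptor messenger RNA in a preparation names the neurons it came from. Neuronal activity raises the phosphorylation of S6, and precipitating phosphorylated S6 enriches the messenger RNA of active cells, receptor messengers included. Mouse receptors are grouped by sequence similarity into numbered MOR families, and genes of a family often stand next to each other because they arose by local duplication. The families of this block belong to class II, the receptors typical of land vertebrates. Binding of an odorant to its receptor acts through the G protein Golf, adenylyl cyclase and a cyclic-nucleotide-gated channel.

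Library totals ran from 22704193 to 25287077 counts. Levels are given as CPM, counts scaled to a common library size, with edgeR's TMM scaling of the libraries. A member is called higher or lower where its adjusted p in edgeR's quasi-likelihood test, corrected over all 19229 genes tested, was under 0.05. In this bulk tissue, fewer active cells of a type and less messenger RNA per cell cannot be told apart. Library A+D 2 had the lowest mean correlation with the other libraries, 0.958, against 0.970 to 0.978 for the rest. Of the 85 members 74 had enough counts to be tested. Counts of 18 of these were not whole numbers in most libraries, which marks genes that share reads with a similar or overlapping gene, so how far their values can be trusted was not measured. Those named below are Olfr726, Olfr727, Olfr739, Olfr740, Olfr741, Olfr742, Olfr743, Olfr763, Olfr784, Olfr805, Olfr806, Olfr819 and Olfr824.

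Stretches of coding sequence are shown for the 2 gene groups on which most of the results turn, because related genes there differed in their values. They come from the GENCODE annotation of the GRCm38 assembly, all on the plus strand. Each is the 90-base window where 2 of the genes differ most, Olfr776 and Olfr775 in the first set, Olfr740 and Olfr742 in the second. Differences within a stretch therefore need not rank the genes as their whole coding sequences do. The first set is MOR111 on chromosome 10, with coding bases 439 to 528 counted from the A of the start codon. Capitals mark bases that differ from Olfr776, and lower case marks identity.
Olfr776: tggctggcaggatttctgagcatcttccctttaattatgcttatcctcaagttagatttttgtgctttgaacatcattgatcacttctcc
Olfr775: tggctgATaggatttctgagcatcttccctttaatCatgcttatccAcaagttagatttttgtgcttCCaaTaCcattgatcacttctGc
Olfr774: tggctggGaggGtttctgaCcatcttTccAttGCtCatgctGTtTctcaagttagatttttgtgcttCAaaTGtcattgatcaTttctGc
Olfr787: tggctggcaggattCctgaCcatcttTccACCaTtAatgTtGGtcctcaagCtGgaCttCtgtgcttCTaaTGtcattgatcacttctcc
Olfr785: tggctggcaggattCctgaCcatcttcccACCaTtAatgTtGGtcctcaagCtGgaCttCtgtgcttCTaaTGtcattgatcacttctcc
Olfr786: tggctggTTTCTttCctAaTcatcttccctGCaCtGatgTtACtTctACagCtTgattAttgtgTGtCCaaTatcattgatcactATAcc
These stretches lie at chr10:129261401-129261490 for Olfr776, chr10:129250974-129251063 for Olfr775, chr10:129238589-129238678 for Olfr774, chr10:129463116-129463205 for Olfr787, chr10:129409806-129409895 for Olfr785 and chr10:129437252-129437341 for Olfr786. Of the 90 bases, 9 differ from Olfr776 in Olfr775, 17 in Olfr774, 19 in Olfr787, 18 in Olfr785 and 29 in Olfr786. Over the 939 coding bases the differences number 37, 71, 82, 126 and 271 in the same order. Over whole coding sequences, Olfr774, Olfr775, Olfr776, Olfr785, Olfr787 and Olfr803 were 79.9% to 96.1% identical in their 15 pairs. Against the other MOR111 members, Olfr786, Olfr788, Olfr789 and Olfr802, they were 69.9% to 75.6% identical in 24 pairs.

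The second set is MOR106 on chromosome 14, with coding bases 94 to 183. Capitals mark bases that differ from Olfr740.
Olfr740: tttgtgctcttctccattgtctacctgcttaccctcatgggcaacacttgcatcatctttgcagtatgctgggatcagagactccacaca
Olfr742: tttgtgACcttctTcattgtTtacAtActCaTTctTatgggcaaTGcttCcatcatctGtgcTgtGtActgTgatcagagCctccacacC
Olfr741: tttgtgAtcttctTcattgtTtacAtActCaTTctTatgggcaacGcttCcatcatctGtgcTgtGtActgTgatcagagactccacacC
Olfr743: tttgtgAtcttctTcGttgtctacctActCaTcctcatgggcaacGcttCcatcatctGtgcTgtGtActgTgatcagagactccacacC
Positions are chr14:50453147-50453236 for Olfr740, chr14:50515299-50515388 for Olfr742, chr14:50485553-50485642 for Olfr741 and chr14:50533507-50533596 for Olfr743. Differences from Olfr740 within the stretch number 20 in Olfr742, 17 in Olfr741 and 14 in Olfr743. Over the 936 coding bases they number 69, 85 and 85 in the same order. The whole coding sequences of Olfr741, Olfr742 and Olfr743 were 90.9% to 92.6% identical to Olfr740. Olfr741 and Olfr742 were 96.4% identical to each other. Olfr744 was 82.4% identical to Olfr740. Olfr745 and Olfr736 were 66.9% and 65.6% identical to their nearest member, Olfr739. The median over the 55 pairs of MOR106 genes was 65.6%, so such distances are common in the family. Pairs of members of different families had a median identity of 55.0%.

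Differences are given on the log2 scale with their standard error (SE). The exposures were first compared with Control, which serves as the reference of all 4 comparisons, so these are not independent of each other. In A+D, 5 of 74 tested members rose and 0 fell, where 0.296% of all genes tested rose and 0.026% fell. A&D gave 10 higher and 0 lower members, against 1% and 0.0208% of all genes. O+C gave 6 higher and 4 lower, against 5.74% and 2.35%, and O&C gave 10 higher and 3 lower, against 9.33% and 5.41%. Among the 792 other intact receptors tested, the share that rose was 5.18% for A+D, 9.97% for A&D, 11.6% for O+C and 15.7% for O&C. The members' shares were 6.76%, 13.5%, 8.11% and 13.5%, and their difference from other receptors was not tested. Other receptors fell in 0% of cases for A+D and A&D, in 3.54% for O+C and in 8.59% for O&C. The median log2 difference of the members was 0.02 for A+D, 0.14 for A&D and −0.28 for both O+C and O&C. For all genes it was 0.02, 0, −0.01 and −0.04 in the same order. In A+D, 5 members rose with 15 libraries in the fit and 2 when the fit held only the groups compared. In O+C, 3 rose without Control 3. When the libraries were scaled on the receptor genes alone, the median of all genes moved to 0.15, −0.02, 0.23 and 0.23, and the calls became 6 higher for A+D, 10 higher for A&D, 8 higher with 0 lower for O+C, and 12 higher with 1 lower for O&C.

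**Figure D1:**
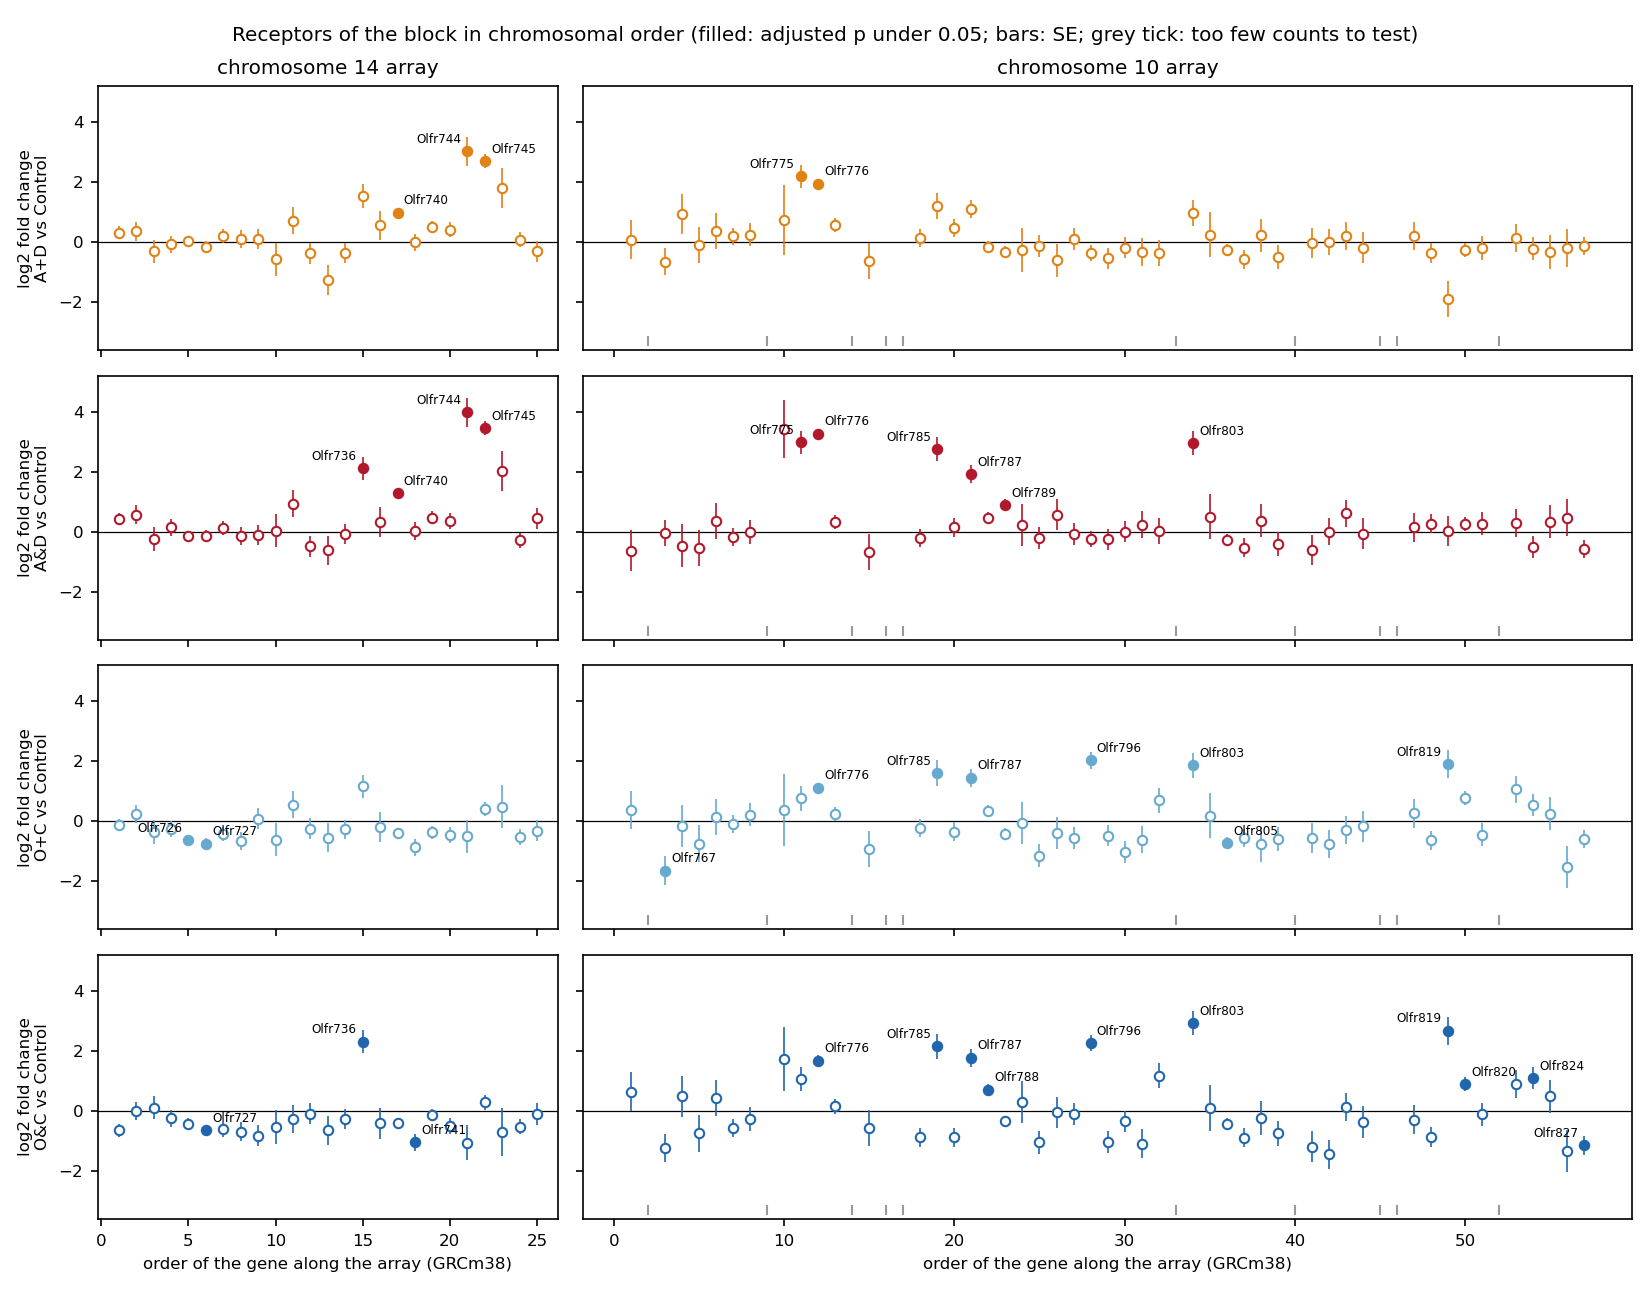
Log2 fold change against Control (y axis, with SE) of each tested member, by its order along the chromosome 14 array (left) and the chromosome 10 array (right), 1 row per exposure; filled points have an adjusted p under 0.05 and grey ticks mark members with too few counts to test. With acetophenone and decanal the filled points are MOR106 and MOR111 genes in both arrays. With octanal and cis-3-hexenol Olfr796, Olfr819, Olfr820 and Olfr824 join MOR111 in the chromosome 10 array, and Olfr736 is filled in the chromosome 14 array. Filled points below 0 there are Olfr726, Olfr727, Olfr741, Olfr767, Olfr805 and Olfr827, each in at least 1 row.

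All members that rose with acetophenone and decanal belonged to MOR111 or MOR106. The 54 tested members outside these families therefore held 0 calls in A+D and in A&D. This follows from how the set was formed, since 0 members fell in either. At an unadjusted p under 0.05, 1 of the 54 was higher and 2 lower in A+D, and 0 of either in A&D. Of all 19229 genes tested, 1576 were higher and 1055 lower at that cutoff in A+D, and 1320 and 966 in A&D. With octanal and cis-3-hexenol, 2 of the 54 rose and 4 fell in O+C, and 4 rose and 2 fell in O&C. Of the 74 tested members 32 were called in at least 1 of the 8 comparisons made, 21 of them against Control, and 42 in none. That is 43.2% and 28.4% of the members, beside 39.8% and 30.6% of other receptors and 23.4% and 16.1% of all genes tested. MOR111 had 8 of 9 tested members called in some comparison, MOR106 8 of 11, MOR246 4 of 6 and MOR210 3 of 5. MOR114 had 1 of 11 and MOR110 3 of 8. The 2 tested MOR113 members were called in none.

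MOR111 members rose with both odorant pairs. Of its 9 tested members 2 rose with A+D, 6 with A&D, 4 with O+C and 5 with O&C, while 0 fell with any. The family's median log2 difference was 0.97, 2.75, 0.77 and 1.68 in that order. The gains were greatest among the 6 similar genes around Olfr776, a grouping by sequence identity made with the values known. Their medians were 1.16, 2.96, 1.29 and 1.75, and all 6 values lay above 0 in each exposure. Olfr774 and Olfr785 were scarce in Control and passed the filter on low counts through exposed libraries, which favours values above 0. The medians and signs of the 6 are therefore description only. Olfr786, in the same family but 71.1% identical to Olfr776, rose and fell in none of the comparisons with Control. Olfr788 and Olfr789, at a similar 72.6% and 72.2% identity to Olfr776, were called higher in O&C and in A&D respectively.

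Olfr776 (ENSMUSG00000095483) was called in all 4 exposures. Its level in the 3 libraries was 3.27, 3.11 and 3.84 CPM in Control, 12.3, 12.7 and 14.5 for A+D and 33.1, 37 and 28.2 for A&D. The octanal and cis-3-hexenol libraries held 7.96, 8.07 and 6.3 CPM for O+C and 9.45, 12.4 and 10.9 for O&C. Every exposed library lay above every Control library, and the 3 A&D libraries lay above all others. The log2 difference from Control was 1.95 ± 0.167 (SE) in A+D (adjusted p = 2.69e-06), 3.26 ± 0.17 in A&D (adjusted p = 1.9e-09), 1.13 ± 0.167 in O+C (adjusted p = 0.000519) and 1.68 ± 0.167 in O&C (adjusted p = 5.4e-06). These 4 calls held under each of the 12 alternatives tried for each.

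Olfr775 (ENSMUSG00000096220), the nearest relative of Olfr776 at 96.1% identity, was called in both exposures to acetophenone and decanal and in neither of the others. It stood at 0.647, 0.917 and 1.03 CPM in Control, 2.81, 6.55 and 2.57 for A+D and 7.96, 6.59 and 6.02 for A&D. In O+C it stood at 2.07, 1.17 and 1.21 CPM and in O&C at 1.13, 2.62 and 1.65. The A+D and A&D libraries did not overlap with Control, and library A+D 2 was far above the other two A+D libraries. Its log2 difference was 2.19 ± 0.393 in A+D (adjusted p = 0.0128) and 2.98 ± 0.393 in A&D (adjusted p = 0.000208). The A+D call was lost without Control 1, Control 2 or A+D 2 and in the fit of the groups compared alone, with log2 differences of 1.62 to 2.43 over all alternatives. In O+C and O&C the differences were 0.77 ± 0.407 (adjusted p = 0.273) and 1.05 ± 0.403 (adjusted p = 0.0868).

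Olfr787 (ENSMUSG00000096497), Olfr785 (ENSMUSG00000111732) and Olfr803 (ENSMUSG00000046041) shared a different order, with A+D the lowest of the exposures in their means. Olfr787 was at 0.849, 1.12 and 1.65 CPM in Control, 2.18, 3.54 and 2.08 for A+D, 4.11, 5.51 and 4.19 for A&D, 3.96, 2.93 and 3.03 for O+C and 3.17, 4.3 and 4.89 for O&C. No exposed library of Olfr787 lay as low as its highest Control library. Its log2 difference was 1.93 ± 0.294 in A&D (adjusted p = 0.000938), 1.45 ± 0.295 in O+C (adjusted p = 0.00595) and 1.77 ± 0.294 in O&C (adjusted p = 0.00072), while A+D, at 1.1 ± 0.297, missed the threshold (adjusted p = 0.166).

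Olfr785 was a rare transcript, at 0.364, 0.359 and 0.207 CPM in Control, 0.545, 0.443 and 1.18 for A+D, 2.27, 2.07 and 2.03 for A&D, 0.646, 1.12 and 1.09 for O+C and 1.21, 1.31 and 1.69 for O&C. It was highest in A&D, whose libraries lay above all others. The log2 difference was 2.75 ± 0.411 in A&D (adjusted p = 0.000763), 2.16 ± 0.416 in O&C (adjusted p = 0.00216) and 1.61 ± 0.422 in O+C (adjusted p = 0.0261). The O+C call was lost without O+C 2, O+C 3 or any 1 Control library, where adjusted p rose as far as 0.108.

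Olfr803 stands apart from the other similar genes in the order along the array. Its levels were 0.404, 0.439 and 0.207 CPM in Control, 0.462, 0.709 and 0.897 for A+D, 3.08, 2.88 and 2.27 for A&D, 0.861, 1.81 and 1.21 for O+C and 1.82, 2.62 and 3.65 for O&C. All exposed libraries were above all Control libraries. It rose by a log2 difference of 2.95 ± 0.402 in A&D (adjusted p = 0.000292) and 2.92 ± 0.402 in O&C (adjusted p = 0.000128), and by 1.87 ± 0.41 in O+C (adjusted p = 0.00978), a call lost without Control 3 (adjusted p = 0.0529). Olfr774 (ENSMUSG00000096229), the sixth of the similar genes, was the rarest. It was at 0.0404, 0 and 0.207 CPM in Control, 0.294, 0 and 0.122 for A+D, 0.513, 1.42 and 0.837 for A&D, 0, 0.12 and 0.195 for O+C and 0.0867, 0.533 and 0.223 for O&C. The A&D libraries were above the Control libraries, but the log2 difference of 3.42 ± 0.974 did not pass the threshold (adjusted p = 0.123). It did pass without the filter on low counts (adjusted p = 0.00476) and in the fit of the 2 groups alone, while adjusted p reached 0.456 without Control 1.

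Of the less similar MOR111 members, Olfr789 (ENSMUSG00000111273) rose in A&D and Olfr788 (ENSMUSG00000049217) in O&C. Olfr789 was at 5.82, 6.7 and 7.31 CPM in Control, 5.58, 3.76 and 6.32 for A+D, 11.4, 13.9 and 11.5 for A&D, 4.91, 5.14 and 4.78 for O+C and 4.21, 5.61 and 5.74 for O&C. In A&D alone all 3 libraries lay above the Control libraries, by a log2 difference of 0.89 ± 0.191 (adjusted p = 0.0246). That call was lost without any 1 of the 3 Control libraries, A&D 1 or A&D 2, with adjusted p up to 0.185. Olfr788 averaged 7.53 ± 0.147 CPM in Control (SD, n = 3) and 12.3 ± 4.13 in O&C, a log2 difference of 0.71 ± 0.198 (adjusted p = 0.0218) that was lost without Control 1, Control 2, Control 3 or O&C 2. Olfr802 had 42 counts in all libraries together and was not tested.

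**Figure D2:**
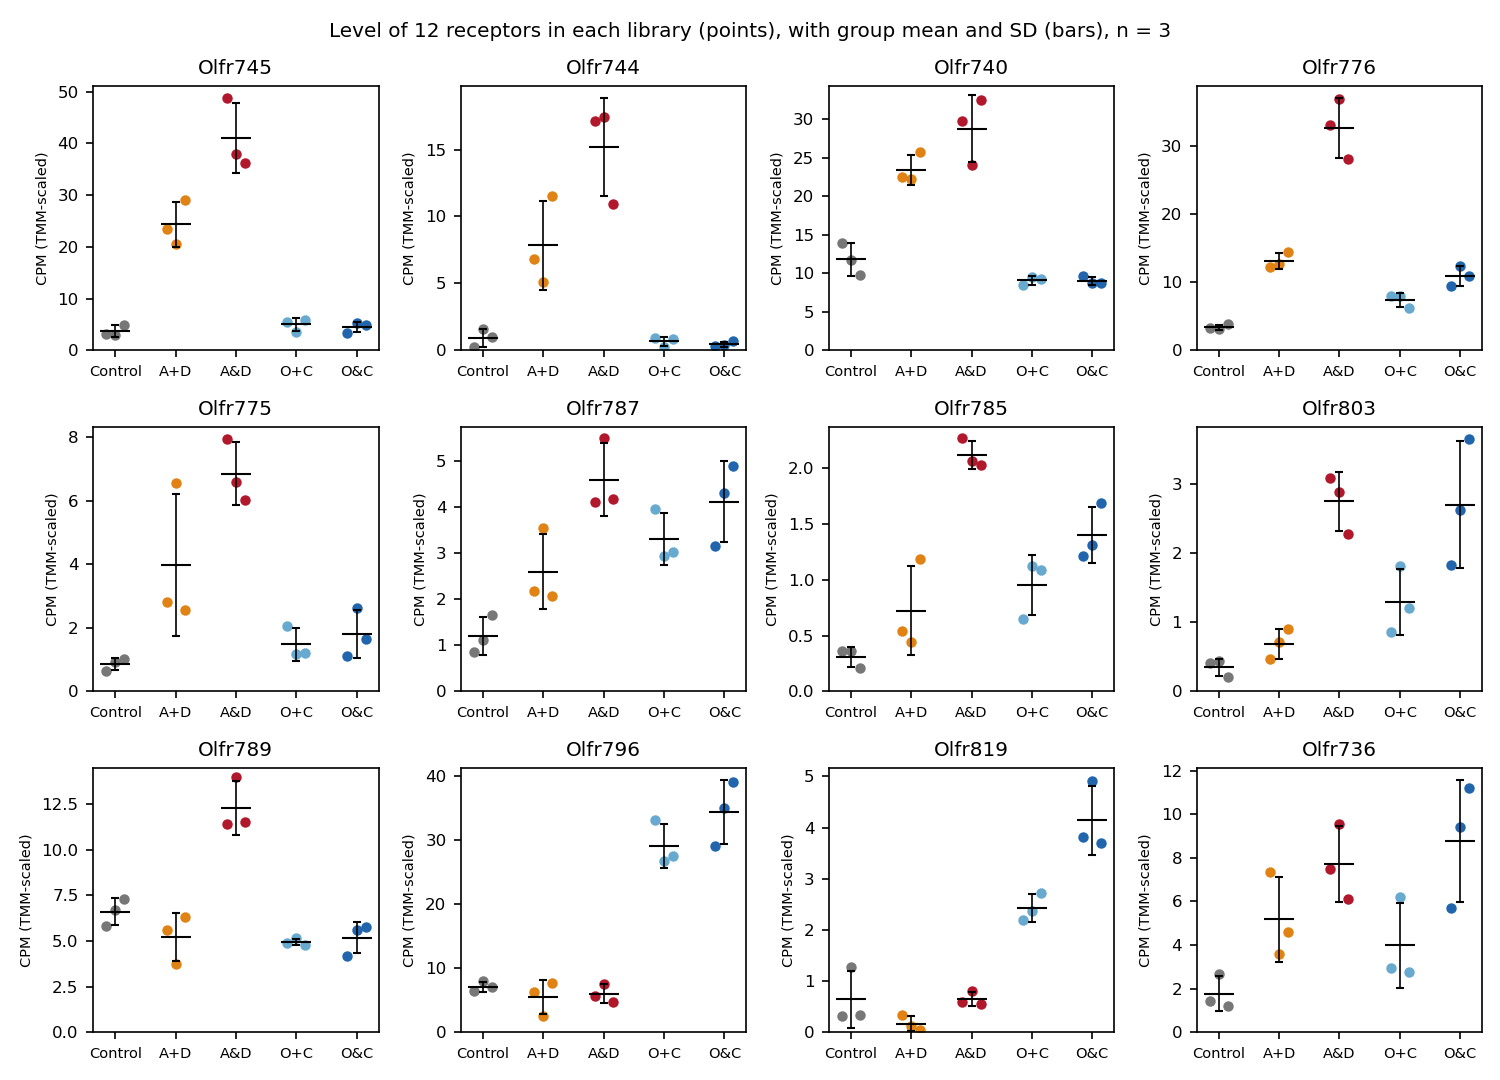
Level (y axis, CPM after TMM scaling, starting at 0) of 12 members in each of the 15 libraries, with points for libraries and bars for the group mean and SD (n = 3). Olfr745, Olfr744 and Olfr740 are high in A+D and A&D only, Olfr796 and Olfr819 in O+C and O&C only, and Olfr776, Olfr787, Olfr803 and Olfr736 are raised with both pairs.

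MOR106, the family at one end of the chromosome 14 array, held the members with the greatest gains from acetophenone and decanal. Of its 11 tested members 3 rose in A+D and 4 in A&D, 0 rose or fell in O+C, and 1 rose and 1 fell in O&C. Family medians of the log2 difference were 0.56 for A+D and 0.47 for A&D, against −0.37 for O+C and −0.41 for O&C.

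Olfr745 (ENSMUSG00000050028) and its neighbour Olfr744 (ENSMUSG00000053815) rose most in both. Olfr745 was at 3.23, 2.99 and 5 CPM in Control, 23.5, 20.6 and 29.1 for A+D and 48.8, 37.9 and 36.3 for A&D, and at 5.42, 3.65 and 5.95 for O+C and 3.38, 5.29 and 4.98 for O&C. All 6 libraries of the acetophenone and decanal groups lay above the other 9. The log2 difference from Control was 2.7 ± 0.236 in A+D (adjusted p = 3.27e-06), a 6.52-fold rise, and 3.45 ± 0.24 in A&D (adjusted p = 7.84e-08), an 11-fold rise. In O+C and O&C the differences were 0.42 ± 0.238 (adjusted p = 0.305) and 0.28 ± 0.24 (adjusted p = 0.462).

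Olfr744 was scarce without those odorants, at 0.242, 1.59 and 1.03 CPM in Control, 0.904, 0.281 and 0.856 for O+C and 0.347, 0.369 and 0.667 for O&C. It reached 6.84, 5.14 and 11.5 CPM for A+D and 17.1, 17.4 and 11 for A&D, again with no overlap with the other groups. The log2 difference was 3.03 ± 0.478 in A+D (adjusted p = 0.00539), a call lost in the fit of the 2 groups alone (adjusted p = 0.104), and 3.98 ± 0.483 in A&D (adjusted p = 0.000178). The identity of 65.3% between the coding sequences of Olfr744 and Olfr745 is far below that among Olfr740 to Olfr743.

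Olfr740 (ENSMUSG00000095917) was more abundant and gained less. Its libraries held 14, 11.8 and 9.75 CPM in Control, 22.4, 22.2 and 25.7 for A+D, 29.7, 24.1 and 32.5 for A&D, 8.48, 9.56 and 9.34 for O+C and 9.63, 8.69 and 8.77 for O&C. The 6 libraries with acetophenone and decanal were again above all others. Its log2 difference was 0.99 ± 0.15 in A+D (adjusted p = 0.00204), lost in the fit of the 2 groups alone (adjusted p = 0.104), and 1.28 ± 0.151 in A&D (adjusted p = 4.96e-05).

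Of the sequence neighbours of Olfr740, Olfr741, Olfr742 and Olfr743 were among the most abundant members, and 0 of the 3 were called higher against Control in any group. The nearest of all, Olfr739, at 93.2% identity, was scarce, with 1.3 ± 1.06 CPM in Control (SD, n = 3), 1.92 ± 0.101 for A+D, 1.64 ± 0.247 for A&D, 1.14 ± 0.247 for O+C and 0.97 ± 0.661 for O&C, and was called in no comparison. Olfr742 (ENSMUSG00000068431) was at 21.6, 29 and 29.8 CPM in Control, 43.3, 25.6 and 45.9 for A+D, 33.8, 32.3 and 45.4 for A&D, 16.4, 22.3 and 23.7 for O+C and 25.1, 21.3 and 26.6 for O&C. Olfr743 (ENSMUSG00000094285) was at 22, 24.9 and 32.6 CPM in Control, 35.6, 23.8 and 46.7 for A+D, 27, 33.5 and 41.2 for A&D, 12.5, 24 and 21.6 for O+C and 15.6, 20.8 and 19.4 for O&C. Control libraries overlapped with those of every other group in both genes, except that Olfr742 was above them in A&D and Olfr743 below them in O&C. Olfr741 (ENSMUSG00000095765) was at 15.4, 19.9 and 28.1 CPM in Control, 20.1, 18.9 and 23.9 for A+D, 20.8, 18 and 25.4 for A&D, 5.73, 14.1 and 14.8 for O+C and 8.11, 12.7 and 9.79 for O&C. It was lower in O&C, with a log2 difference of −1.05 ± 0.297 (adjusted p = 0.0267), with no overlap with Control. The call was lost without O&C 1, O&C 3, Control 2 or Control 3, with adjusted p up to 0.118. Reads shared among these similar genes, Olfr740 included, were divided by the authors' quantification, so the values of single genes depend on that division.

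Olfr736 (ENSMUSG00000047716) was called with both odorant pairs. It was at 1.46, 2.67 and 1.2 CPM in Control, 7.34, 3.59 and 4.61 for A+D, 7.48, 9.56 and 6.1 for A&D, 2.97, 6.22 and 2.76 for O+C and 5.72, 9.43 and 11.2 for O&C. All exposed libraries were above all Control libraries. The log2 difference was 2.11 ± 0.386 in A&D (adjusted p = 0.00762) and 2.3 ± 0.386 in O&C (adjusted p = 0.000929), the A&D call being lost without Control 1 or Control 3. In A+D and O+C the differences were 1.54 ± 0.387 (adjusted p = 0.135) and 1.16 ± 0.389 (adjusted p = 0.0791).

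With octanal and cis-3-hexenol, receptors from 4 other families of the chromosome 10 array rose. Olfr796 (ENSMUSG00000052012, MOR269) was at 6.42, 7.98 and 7.02 CPM in Control, 6.38, 2.52 and 7.71 for A+D and 5.73, 7.62 and 4.79 for A&D. It reached 33.1, 26.7 and 27.6 CPM for O+C and 29.1, 35 and 39.1 for O&C. The 6 libraries with octanal and cis-3-hexenol were far above the other 9. Its log2 difference was 2.03 ± 0.274 in O+C (adjusted p = 0.000289) and 2.27 ± 0.276 in O&C (adjusted p = 5.7e-05), and both calls held under all 12 alternatives. Its nearest relative in the block, Olfr763, was 65.9% identical and was called in none of the comparisons.

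Olfr819 (ENSMUSG00000094295, MOR265) was at 0.323, 1.28 and 0.331 CPM in Control, 0.336, 0.133 and 0.0408 for A+D, 0.599, 0.818 and 0.558 for A&D, 2.2, 2.37 and 2.72 for O+C and 3.82, 4.92 and 3.69 for O&C. Libraries with octanal and cis-3-hexenol again lay above all others, and Control 2 was the highest of the rest. The log2 difference was 1.91 ± 0.461 in O+C (adjusted p = 0.0169) and 2.67 ± 0.461 in O&C (adjusted p = 0.00094). Without O+C 1, O+C 3, Control 1 or Control 3 the O+C call was lost, with log2 differences from 1.59 to 2.88 over the alternatives. Its nearest relative in the block was Olfr796, at 58.5% identity.

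Olfr820 (ENSMUSG00000048745, MOR116), next to Olfr819 in the array, and Olfr824 (ENSMUSG00000095804, MOR210) gained less. Olfr820 was at 7.31, 8.85 and 7.35 CPM in Control, 7.51, 4.74 and 7.3 for A+D, 9.54, 12.1 and 6.54 for A&D, 13.3, 15.6 and 11.3 for O+C and 10.4, 15.5 and 17.8 for O&C. Its libraries in O+C and O&C were above those of Control, with a log2 difference of 0.9 ± 0.237 in O&C (adjusted p = 0.0173), lost without O&C 2, O&C 3, Control 1 or Control 3. Olfr824 was at 1.25, 2.11 and 1.24 CPM in Control, 1.34, 1.28 and 1.35 for A+D, 0.556, 1.03 and 1.64 for A&D, 3.01, 1.73 and 2.06 for O+C and 2.17, 4.34 and 3.34 for O&C. The O&C difference of 1.09 ± 0.361 was at the threshold (adjusted p = 0.0496) and was lost without O&C 2, O&C 3, Control 1 or Control 3.

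All members called lower against Control were in O+C or O&C. They were 5.41% of tested members in O+C, beside 2.35% of all genes and 3.54% of other receptors. In O&C they were 4.05%, beside 5.41% and 8.59%. These calls depended on scaling, on other settings or on single libraries. The most abundant members, Olfr727 (ENSMUSG00000059488) and Olfr726 (ENSMUSG00000060523), are neighbours of MOR246 in the chromosome 14 array. Olfr727 was at 64.9, 73.6 and 87.4 CPM in Control, 78, 51 and 74.6 for A+D, 65.3, 61.9 and 79.7 for A&D, 35.3, 56.1 and 43.8 for O+C and 50.3, 46.1 and 49.3 for O&C. The O+C and O&C libraries lay below the Control libraries, with differences of −0.74 ± 0.175 (adjusted p = 0.0152) and −0.63 ± 0.175 (adjusted p = 0.0214) on the log2 scale. Both calls were lost when libraries were scaled on receptors alone and without Control 3. The O+C call was also lost without O+C 1 or O+C 3, and the O&C call without Control 2 or any 1 O&C library. Olfr726 was at 39.2, 38 and 46.8 CPM in Control, 47.2, 27.9 and 52.6 for A+D, 35.3, 34.5 and 42.5 for A&D, 25.3, 29.4 and 26.1 for O+C and 28.6, 30.7 and 33.2 for O&C. Its O+C libraries lay below Control, with a difference of −0.62 ± 0.176 (adjusted p = 0.0382), a call lost with scaling on receptors alone and without any 1 library of either group.

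In the chromosome 10 array Olfr805, Olfr767 and Olfr827 were called lower. Olfr805 (ENSMUSG00000096858, MOR110) was at 10.6, 10.4 and 8.92 CPM in Control, 9.53, 6.07 and 9.38 for A+D, 8.47, 8.18 and 7.97 for A&D, 5.08, 6.3 and 6.69 for O+C and 5.42, 7.79 and 8.86 for O&C. Its log2 difference in O+C was −0.73 ± 0.202 (adjusted p = 0.0341), a call lost with scaling on receptors alone and without any 1 library of either group. Olfr767 (ENSMUSG00000059762, MOR115) was at 1.01, 1.04 and 1.41 CPM in Control, 0.294, 0.93 and 0.979 for A+D, 1.58, 0.689 and 1.08 for A&D, 0.344, 0.522 and 0.233 for O+C and 0.564, 0.41 and 0.489 for O&C. It was lower in O+C, with a difference of −1.64 ± 0.482 (adjusted p = 0.0443), lost with scaling on receptors alone and without O+C 1, O+C 3 or any 1 Control library. Olfr827 (ENSMUSG00000045559, MOR210) was at 1.25, 1.28 and 1.57 CPM in Control, 1.51, 1.28 and 0.938 for A+D, 0.941, 0.947 and 0.877 for A&D, 0.947, 0.964 and 0.817 for O+C and 0.564, 0.738 and 0.534 for O&C. Its O&C libraries were below Control, with a difference of −1.15 ± 0.318 (adjusted p = 0.0212), lost with scaling on receptors alone, with no filter on low counts and without Control 3, O&C 1 or O&C 3. Lower calls numbered 0 for O+C and 1 for O&C with receptor scaling, and 0 for both without Control 3. O&C also had 0 without O&C 1, and O+C had 0 without O+C 1 or O+C 3. In O&C lower calls were more numerous with DESeq2, with no filter on low counts and in the fit of the groups compared, as given below.

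The 2 forms of delivery were compared within each odorant pair. For acetophenone and decanal 3 members, all of MOR111, were lower when the odorants shared a paper than when they were on separate papers, and 0 were higher. Among all genes tested 0.12% were lower and 0% higher, and among other receptors 2.27% were lower. At an unadjusted p under 0.05, 14 members were lower and 0 higher, 8 of the 14 in MOR111. Of the 792 other receptors 87 were lower and 8 higher at that cutoff, and of all 19229 genes tested 413 and 339. The lean towards lower values was thus also seen in other receptors. Olfr776 differed most clearly, at 13.2 ± 1.15 CPM in A+D (SD, n = 3) and 32.8 ± 4.41 in A&D, a log2 difference of −1.31 ± 0.154 (adjusted p = 0.00072). Olfr789 was at 5.22 ± 1.32 CPM in A+D and 12.3 ± 1.45 in A&D, with a log2 difference of −1.23 ± 0.194 (adjusted p = 0.0107). For Olfr803 the levels were 0.689 ± 0.219 and 2.75 ± 0.421 CPM and the log2 difference −1.98 ± 0.373 (adjusted p = 0.0443). The Olfr776 call held under all 12 alternatives. That of Olfr789 was lost without A&D 2, where 1 member remained called, and in the fit of the 2 groups alone, and that of Olfr803 was lost with scaling on receptors alone, in the fit of the 2 groups alone and without any 1 of the 6 libraries compared. Values of the MOR106 members Olfr744, Olfr745 and Olfr740 were −0.95 ± 0.405 (adjusted p = 0.994), −0.75 ± 0.212 (adjusted p = 0.795) and −0.29 ± 0.147 (adjusted p = 0.994).

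For octanal and cis-3-hexenol, 0 members were called between the deliveries by edgeR, with 2 higher and 3 lower in O+C at an unadjusted p under 0.05, and 0% of all genes were called. Without the filter on low counts 1 member was called lower. The median log2 difference of members was −0.07 there and −0.13 in A+D against A&D, where that of all genes was 0 and 0.02. Whether delivery acted differently in the 2 pairs was tested by the interaction, that is, the A+D minus A&D difference less the O+C minus O&C difference. In it 0 members were called, and 0.0104% of all genes and 0.126% of other receptors were lower, with 0% higher. At an unadjusted p under 0.05, 1 member was higher and 4 were lower. Of the 792 other receptors 9 were higher and 66 lower at that cutoff, and of all 19229 genes tested 275 and 242. Without the filter on low counts 1 member was called lower. For Olfr776 the interaction was −0.76 ± 0.22 (adjusted p = 1), for Olfr789 −1.16 ± 0.276 (adjusted p = 0.965) and for Olfr803 −0.93 ± 0.51 (adjusted p = 1). A difference in the delivery effect between the pairs was thus not shown for any of these 3.

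The odorant pairs were then compared with each other, 6 libraries against 6, in a contrast that leaves Control out. With acetophenone and decanal 20 members were higher and 5 lower, where 6.74% of all genes tested were higher and 9.03% lower. A higher value here can come from a rise with acetophenone and decanal or from lower levels with octanal and cis-3-hexenol. Of other receptors 19.3% were higher and 14.1% lower, and of the members 27.0% and 6.76%. With receptor scaling 12 members were higher against 7 lower, while the median over all genes tested shifted from 0.03 to −0.17. The chromosome 14 array accounted for 12 of the higher members and 0 of the lower ones, out of 25 tested. The chromosome 10 array gave 8 higher and 5 lower of 47. In MOR106 7 of 11 members were higher, in MOR246 4 of 6 and in MOR111 4 of 9, with 0 lower in any of these families. The median log2 difference of MOR246 from Control was −0.02 in A+D and −0.04 in A&D, against −0.62 in O+C and −0.57 in O&C.

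Olfr744 differed most, with a lowest, median and highest level of 5.14, 11.2 and 17.4 CPM in the acetophenone and decanal libraries and 0.281, 0.518 and 0.904 in the others. That is a log2 difference of 4.28 ± 0.365 (adjusted p = 1.35e-06), or 19.4-fold. Olfr745 ranged over 20.6, 32.7 and 48.8 and 3.38, 5.13 and 5.95 CPM in the same order, a difference of 2.73 ± 0.165 (adjusted p = 3.91e-09). For Olfr740 the values were 22.2, 24.9 and 32.5 and 8.48, 9.05 and 9.63 CPM, with a difference of 1.52 ± 0.108 (adjusted p = 2.98e-08). In these 3 genes the 2 sets of libraries did not overlap. Olfr776 was at 12.3, 21.3 and 37 CPM against 6.3, 8.76 and 12.4, a difference of 1.2 ± 0.111 (adjusted p = 9.86e-07), with the highest O&C library just above the lowest A+D library.

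In the other direction Olfr819 was at 0.0408, 0.447 and 0.818 CPM with acetophenone and decanal and 2.2, 3.21 and 4.92 with octanal and cis-3-hexenol. Its log2 difference was −3.23 ± 0.36 (adjusted p = 1.24e-05). Olfr796 was at 2.52, 6.05 and 7.71 against 26.7, 31.1 and 39.1 CPM, a difference of −2.45 ± 0.198 (adjusted p = 3.33e-07). Neither gene's libraries overlapped between the pairs. Olfr820 and Olfr824 differed by −0.84 ± 0.168 (adjusted p = 0.00353) and −1.19 ± 0.261 (adjusted p = 0.00642), and Olfr801 by −1.1 ± 0.298 (adjusted p = 0.0206), the last lost without O+C 2 or O&C 3. The calls of Olfr744, Olfr745, Olfr740, Olfr776, Olfr775, Olfr796, Olfr819, Olfr820 and Olfr824 held under all 18 alternatives tried for each.

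Other members of both arrays were also called between the pairs. Olfr741, Olfr742 and Olfr743 were higher with acetophenone and decanal by 0.97 ± 0.209, 0.75 ± 0.147 and 0.87 ± 0.184 on the log2 scale, and these calls also held under all 18 alternatives. Olfr746, 93.7% identical to Olfr748, was higher by 2.02 ± 0.486 (adjusted p = 0.0105), whereas Olfr748 had a difference of 0.27 ± 0.252 (adjusted p = 0.492). In MOR246, Olfr726, Olfr727, Olfr728 and Olfr729 were higher by 0.47 ± 0.124, 0.55 ± 0.123, 0.69 ± 0.17 and 0.66 ± 0.214, and all 4 calls were lost when libraries were scaled on receptors alone. Olfr767, Olfr791, Olfr811 and Olfr826, with differences of 1.09 ± 0.342, 0.94 ± 0.272, 1.1 ± 0.335 and 1.56 ± 0.491, were lost under the same scaling and without 1 of several libraries, those of Olfr767, Olfr811 and Olfr826 also in the fit of the groups compared alone. Olfr722, Olfr786 and Olfr789 were higher by 0.75 ± 0.148 (adjusted p = 0.00313), 0.92 ± 0.226 (adjusted p = 0.0116) and 0.66 ± 0.138 (adjusted p = 0.00464). For Olfr789 the log2 difference from Control was −0.34 in A+D and 0.89 in A&D, against −0.42 in O+C and −0.35 in O&C. Its difference between the pairs thus came from A&D and not from A+D.

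**Figure D3:**
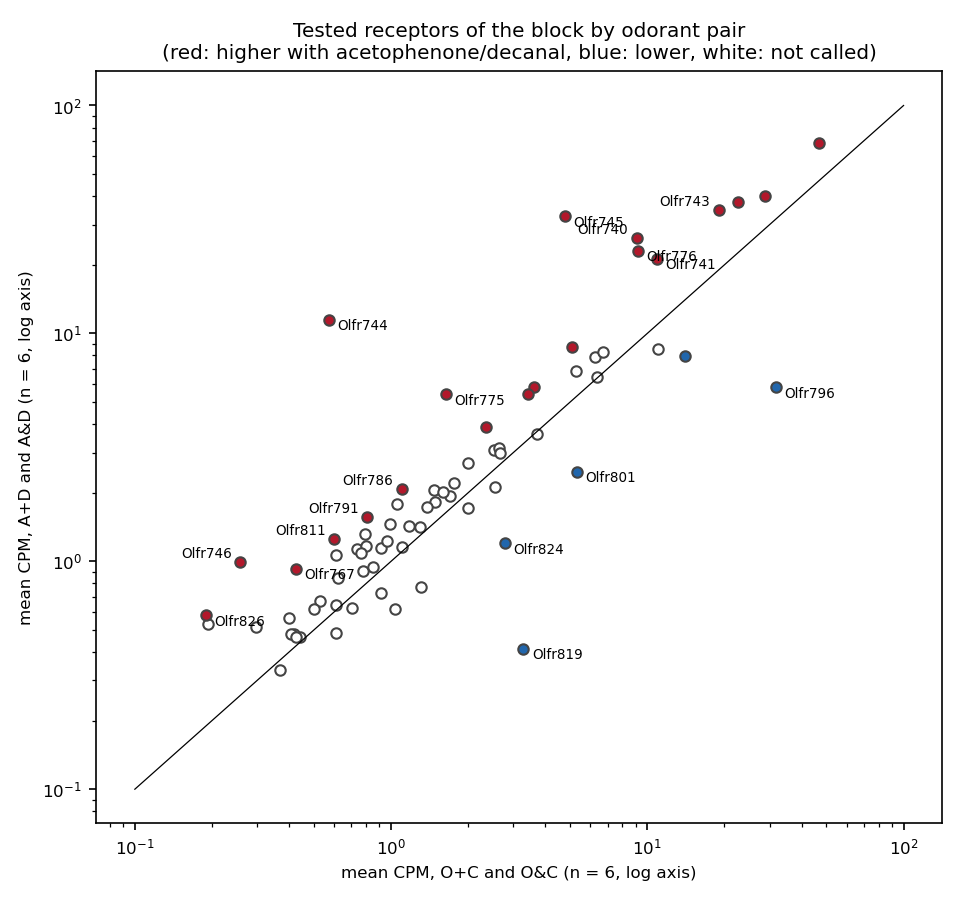
Mean level of each tested member in the 6 octanal and cis-3-hexenol libraries (x axis, CPM, log scale) and in the 6 acetophenone and decanal libraries (y axis, CPM, log scale), with the line of equal levels; red members were called higher with acetophenone and decanal, blue lower, and names are given for larger differences. Olfr744 and Olfr745 lie farthest above the line and Olfr819 and Olfr796 farthest below it.

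The heat map of the 32 called members shows which libraries carry the pattern. The change is spread over all 3 libraries of a group for Olfr744, Olfr745, Olfr776 and Olfr796, and rests more on A+D 2 for Olfr775 in A+D.

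**Figure D4:**
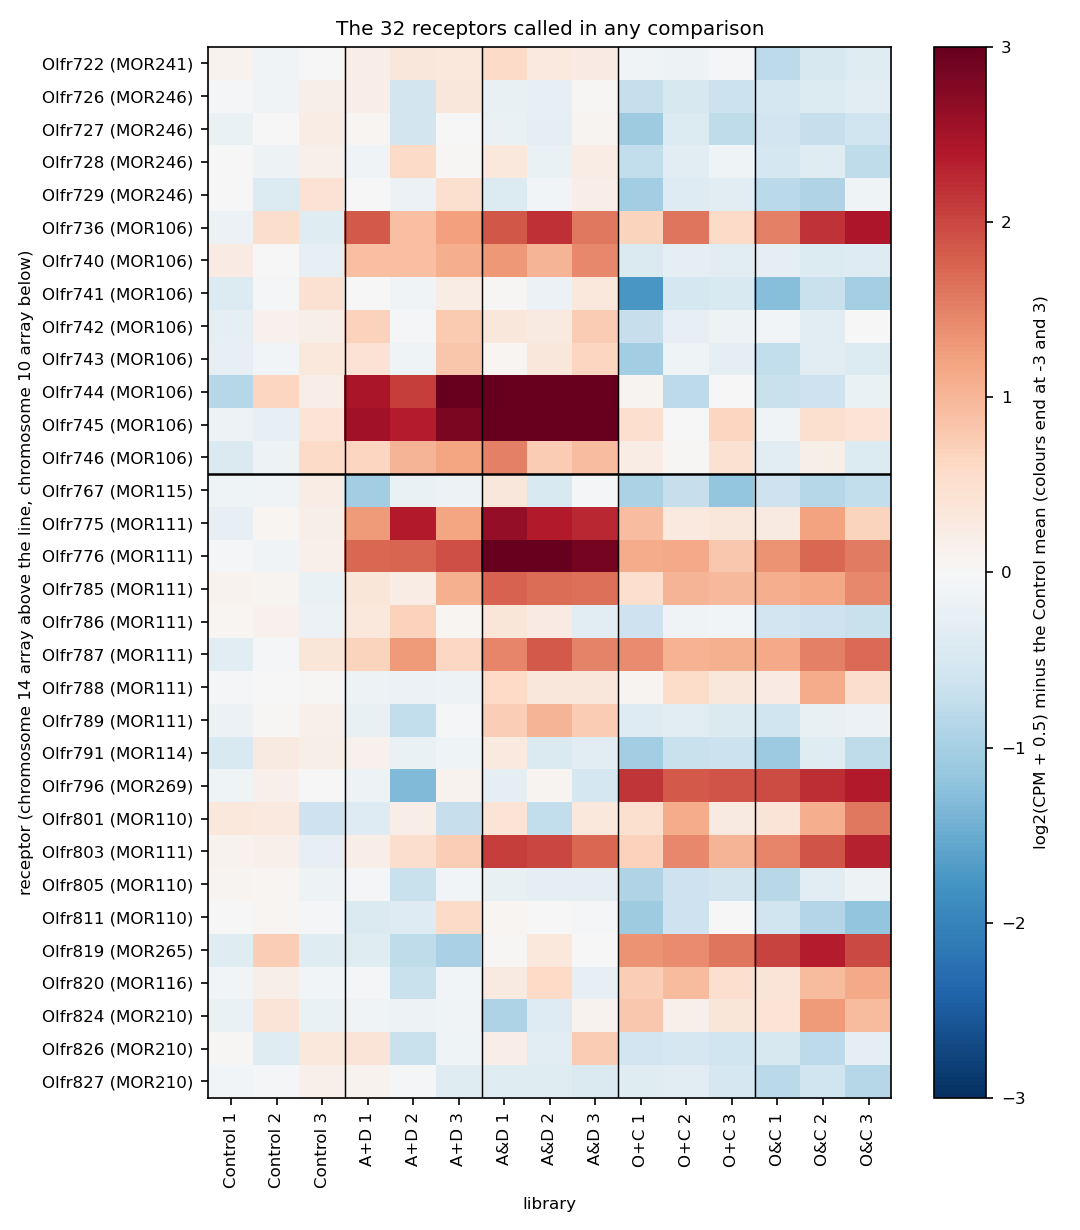
Log2 of CPM plus 0.5 less the mean of the Control libraries (colour, ending at −3 and 3) for the 32 members called in any comparison (rows, with family) in the 15 libraries (columns); rows above the thick line are in the chromosome 14 array. Red columns in A+D and A&D mark Olfr744 and Olfr745, and red columns in O+C and O&C mark Olfr796 and Olfr819.

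Among the 42 tested members called in no comparison, Olfr774, Olfr818 and Olfr799 had the lowest unadjusted p. In adjusted p, Olfr818 between the pairs was followed by Olfr798, Olfr806 and Olfr784 in O&C, with log2 differences of −1.02 ± 0.365 (adjusted p = 0.0689), −0.89 ± 0.319 (adjusted p = 0.0701) and −0.87 ± 0.314 (adjusted p = 0.0704). Olfr818 (ENSMUSG00000058071, MOR110) was at 1.17, 1.75 and 1.07 CPM in Control, 1.18, 1.06 and 0.857 for A+D, 1.75, 1.16 and 1.91 for A&D, 0.99, 0.883 and 0.7 for O+C and 0.91, 0.615 and 0.667 for O&C, with a difference between the pairs of 0.7 ± 0.238 (adjusted p = 0.0539). Olfr799 (ENSMUSG00000094734, MOR114) was at 1.82, 1.75 and 1.07 CPM in Control, 1.26, 1.42 and 1.43 for A+D, 2.22, 1.38 and 1.08 for A&D, 0.603, 1.04 and 0.622 for O+C and 1.65, 1.06 and 0.934 for O&C, and its O+C difference was −1.03 ± 0.367 (adjusted p = 0.0955). Olfr720 and Olfr750, which lie outside the arrays, were called in none, at 7.33 ± 2.62 and 1.9 ± 0.42 CPM in Control (SD, n = 3). Of the 11 members not tested, Olfr761 had 0 counts in every library and the others 7 to 143.5 counts over all 15 libraries.

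The block as a whole took a smaller part of the receptor counts with octanal and cis-3-hexenol. Its share of all counts of intact receptors was 10.6% ± 0.556 (SD, n = 3) in Control, 10.8% ± 0.361 in A+D and 10.2% ± 0.556 in A&D. O+C had 6.38% ± 0.758 and O&C 6.19% ± 0.455, and no library of either lay within the range of the other 3 groups. Of all counts the block took 0.0361% ± 0.0031 for Control, 0.0416% ± 0.00771 for A+D, 0.0478% ± 0.00118 for A&D, 0.0299% ± 0.00376 for O+C and 0.0320% ± 0.00316 for O&C. Intact receptors together took 0.341% of counts in Control and 0.386%, 0.469%, 0.468% and 0.522% in the exposures in the same order. Much of the block's sum is Olfr727, Olfr726, Olfr742, Olfr743 and Olfr741, which share reads. Over the members whose counts were whole in most libraries, the share of all counts was 0.0115% for Control, 0.0154% for A+D, 0.0220% for A&D, 0.0136% for O+C and 0.0151% for O&C. The direction of the share of all counts in O+C and O&C thus turned with the members summed. For these members the share of receptor counts was not computed. No test was made on these sums.

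**Figure D5:**
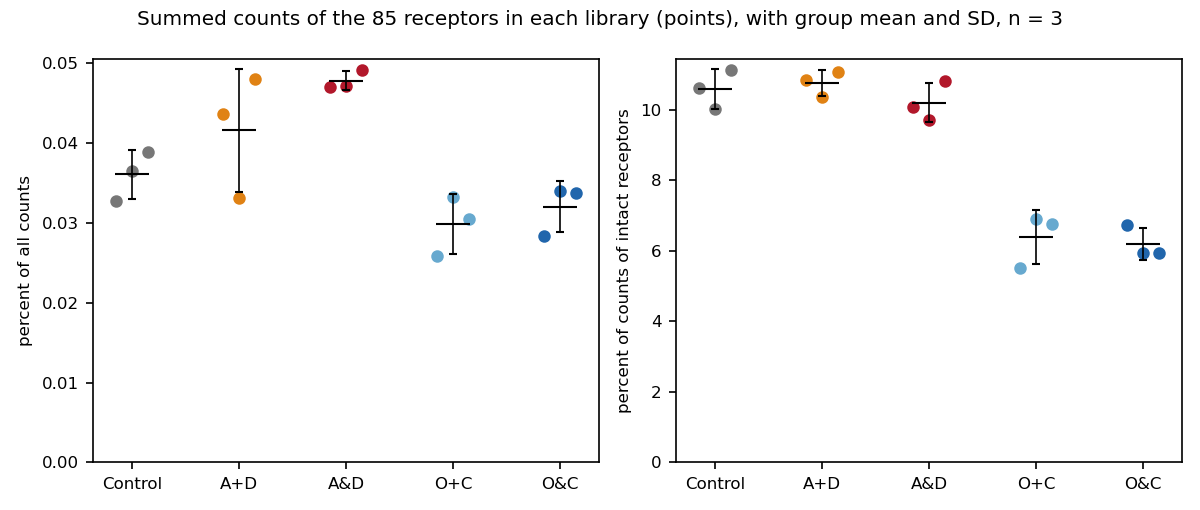
Summed counts of the 85 members as a percent of all counts (left) and of the counts of intact receptors (right) in each library, with points for libraries and bars for the group mean and SD (n = 3); both axes start at 0. In the right panel the O+C and O&C libraries lie at 5.51% to 6.90% and the others at 9.71% to 11.1%.

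Genes that act downstream of the receptors, genes that follow neuronal activity and cell type markers were read in the same comparisons, for which 0.296%, 1%, 5.74% and 9.33% of all genes rose and 0.026%, 0.0208%, 2.35% and 5.41% fell. Of 20 genes for olfactory transduction and receptor trafficking, which include the channel subunit gene Cnga2, 0 rose with A+D, 3 with A&D, 17 with O+C and 19 with O&C, with 0 lower in each. Their median log2 differences were 0.2, 0.42, 0.74 and 0.86, and between the pairs 15 were lower with acetophenone and decanal. Of 14 genes that follow activity in these neurons, 2, 7, 11 and 11 rose, with medians of 0.75, 1.11, 1.69 and 1.94. Of 8 markers of mature olfactory sensory neurons 0, 2, 8 and 8 rose, and their summed level was 8073 to 9025 CPM in Control libraries and 12660 to 16880 CPM in O&C libraries. Of 5 markers of sustentacular cells, the supporting cells of the epithelium, 0, 0, 2 and 3 fell, with summed levels of 1768 to 2116 CPM in Control and 1063 to 1385 CPM in O&C. Of the other cell type markers 0 were called with A+D or A&D and 0 rose in any exposure. With O+C 1 of 4 immune and 1 of 4 glial markers fell, with list medians of −0.75 and −0.8. With O&C 3 of 3 red blood cell genes fell (median −0.87), as did 2 of 4 immune (−0.75), 1 of 4 glial (−0.45), 1 of 4 microvillar (−0.51) and 1 of 3 respiratory ciliated markers (−0.41). Summed red blood cell genes were at 11840 to 18470 CPM in Control and 6168 to 8652 CPM in O&C, and immune markers at 667.9 to 1083 and 362.5 to 570 CPM. No gene of these lists was at 0 in all libraries. The part of these shifts in the members' values was not tested.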

How the data were processed

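Estimated counts per gene, which need not be whole, were deposited by the authors for all 15 libraries in 1 table without normalization. Per the submitters' processing notes, STAR 2.7.10b, Salmon 1.10.1 and R 4.4.2 were used on GRCm39, and the labels name a stranded kit. The annotation and the strand setting of the counting are not given in the sources used here, so reads of overlapping antisense genes cannot be told apart. Symbols were found for 52029 of 57010 gene identifiers, and all 85 members were matched by symbol to RefSeq of GRCm38. RefSeq gave the families of all members but Olfr765. Gene order and coding sequences (84 members) came from GENCODE on GRCm38.

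Expected counts were rounded. In each library 86.0% to 87.9% of values were whole (tolerance 5e-04). Genes were kept by filterByExpr (minimum count 10), scaled by TMM and tested by the quasi-likelihood F test (robust) of edgeR 4.0.16, run in R 4.3.3, with 1 mean per group over 15 libraries. Benjamini-Hochberg adjustment ran over 19229 genes with a threshold of 0.05, two-sided. The common dispersion was 0.0336. The script was tested on simulated data for A&D against Control. In the simulation all genes had the same dispersion, and the changed genes were drawn from all genes tested. The script recovered 100% of 4-fold and 64% of 2-fold rises, and 92% and 70% of falls to 0.25 and 0.5 of the level. Of the calls made there 7.39% were false, above the threshold of 0.05. These rates need not hold for scarce receptors. SE is the log2 difference divided by the square root of F. The 8 comparisons were each exposure against Control, the deliveries within each pair, their interaction, and the pairs against each other. All libraries belong to 1 batch per the labels, and p-values measure the spread between them.

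Members and lists were chosen with earlier results of these data known. Called members may be named. Values in every library are given for the 6 called members with the lowest p in each direction against Control, the 4 in each other comparison, the 5 with the highest mean CPM and the 3 uncalled ones with the lowest p. Other genes were named after their values were seen. Alternatives were size factors by relative log expression, DESeq2 1.42.0, no filter, scaling on receptors alone, fits of the groups compared, a replicate block, leaving out each library, and only members with whole counts. The marker lists also covered immature neurons, globose and horizontal basal cells, gland, microvillar, respiratory ciliated, glial, immune, red blood and vomeronasal cells. Their summed CPM over all libraries ran from 1724 to 3105, 120.5 to 164.2, 12.9 to 28.2, 156 to 1556, 26.3 to 50.7, 122.5 to 276.2, 59.9 to 141.8, 362.5 to 1083, 6168 to 19890 and 442.3 to 573.6 in that order.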

Additional observations from a re-analysis of the deposited data

How the results depend on the processing

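Over 942 alternative values for the 66 calls of single members, 797 kept direction and call, 145 lost the call and 0 reversed. Members higher in A+D numbered 8 without the filter on low counts and 2 in the fit of the groups compared (5 as reported), and 1 was lower without the filter or without A+D 1 (0 as reported, range 0 to 1 with a library left out). In O+C, 3 to 6 were higher with a library left out (lowest without Control 3), and lower members numbered 0 with receptor scaling, 1 among whole counts and 0 to 2 with a library left out. In O&C, lower members numbered 6 with DESeq2, 8 without the filter, 1 with receptor scaling, 10 in the fit of the groups compared, 1 among whole counts and 0 to 4 with a library left out, 0 without Control 3 or O&C 1. For A+D against A&D, 6 were lower without the filter, 1 in the fit of the groups compared and 1 to 2 with a library left out. Without the filter 1 member was lower in O+C against O&C and 1 in the interaction. Between the pairs, 12 were higher with receptor scaling and 3 lower among whole counts. The ratio of the block's level to Control, 1.32 for A&D, 0.828 for O+C and 0.888 for O&C, was 0.963, 0.603 and 0.585 as a part of receptor counts and 1.91, 1.18 and 1.31 over members with whole counts. The cause of these changes was not tested. Same-numbered libraries correlated at −0.331 to 0.144 in their deviations, 1 of 15 libraries correlated best with its own number, and the labels do not pair them. With the replicate block, higher members numbered 5 with A+D, 10 with A&D, 6 with O+C, 9 with O&C and 18 between the pairs, and lower ones 3 with O+C, 3 with O&C, 2 in A+D against A&D and 5 between the pairs. Calls absent under the block were those of Olfr805 and Olfr767 in O+C, Olfr824 in O&C, Olfr803 in A+D against A&D, and Olfr767 and Olfr811 between the pairs. Rare members limit the reach of the tests: 11 had too few counts.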

Other observations

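Receptor pseudogenes carry numbers within the same range, 19 in the table, of which 4 had enough counts to be tested. Their values were seen before they were chosen for mention. Olfr766-ps1 (ENSMUSG00000107748) rose in all 4 exposures, by 4.19 ± 0.531 (SE) in A+D (edgeR adjusted p = 0.00116), 4.35 ± 0.532 in A&D (adjusted p = 0.000419), 4.28 ± 0.531 in O+C (adjusted p = 0.000359) and 4.21 ± 0.532 in O&C (adjusted p = 0.000205) on the log2 scale, from a mean of 0.902 CPM in Control. Its difference between the odorant pairs was 0.03 ± 0.295 (adjusted p = 0.958). Olfr764-ps1 (ENSMUSG00000107648), at 0.230 CPM in Control, rose by 4.1 ± 0.487 in A&D (adjusted p = 5.64e-05), 3.17 ± 0.495 in O+C (adjusted p = 0.00074) and 4.4 ± 0.486 in O&C (adjusted p = 1.66e-05), while A+D gave 1.74 ± 0.533 (adjusted p = 0.21). A+D was lower than A&D for this pseudogene, with a log2 difference of −2.36 ± 0.418 (adjusted p = 0.0276). Olfr721-ps1 was higher with acetophenone and decanal than with octanal and cis-3-hexenol by 0.99 ± 0.222 (adjusted p = 0.00734), and Olfr764-ps1 was lower by a log2 difference of −0.87 ± 0.281 (adjusted p = 0.0444). These transcripts are counted in no total given for the intact receptors.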
